A study of Mus musculus with 18 samples.

Results

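The Slc25a genes encode the mitochondrial carrier family, the transporters that move nucleotides, phosphate, carboxylates, amino acids, acylcarnitines and cofactors across the inner mitochondrial membrane. Their transcripts were followed in bulk liver RNA of mice that lack lysosomal acid lipase (LAL), with and without liver-directed gene transfer. All 47 rows of the gene table whose symbol is Slc25a followed by a number were looked up, and 42 of them held more than 100 reads summed over the 18 mice, among 14535 genes that passed this minimum and 35441 rows in all. Slc25a2, Slc25a18, Slc25a31, Slc25a41 and Slc25a54 fell below it, with 46, 18, 45, 1 and 0 reads. Members were chosen by name and by depth over all 18 mice. Slc25a43 passed the minimum with 125 reads, most of them from KO mice. Its calls in comparisons with KO, counted below, are therefore no independent result.

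WT mice were compared with untreated Lipa-/- mice (KO), in which exon 4 of Lipa is deleted in all tissues, and with rAAV8-treated Lipa-/- mice (KOT). KOT mice had received an intravenous injection of rAAV8.hAAT.LIPA, which carries the human LIPA cDNA with a triple HA tag under the human alpha1-antitrypsin promoter, active in hepatocytes. All animals were males, and injection was at 10 to 12 weeks of age. Liver was taken 12-weeks or 34-weeks post-injection, which the labels call 3 and 8 months, from 3 mice in each of the 6 groups. WT and KO mice carried no vector, KO and KOT mice share the same deletion, and per the study's methods most untreated KO mice of the late experiment were killed on reaching predefined endpoints rather than at the final time. The sample codes of the 12-weeks and 34-weeks mice differ, so code and time point cannot be told apart, and KO mouse 5 at 12-weeks has a code of its own.

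Depth was 17527848 to 25833134 estimated reads per mouse, of which 0.216 to 0.449% fell on the 42 carriers. Murine Lipa stood at 202 to 323 CPM (read counts scaled by library size and by TMM, a correction for library composition) in WT, at 16.7 to 33.4 in KO and at 29.1 to 37 in KOT, and the human LIPA row at 523 to 2750 in KOT and at most 0.906 in the other mice. TMM factors ranged from 0.587 to 1.69. Transcripts of the major urinary proteins made up 9.22 to 16.3% of reads in WT and 9.11 to 25% in KOT at 12-weeks, and 0.0499 to 0.216% in KO.

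Carrier proteins share repeated modules and alternate between a cytosolic and a matrix-facing state, so that a solute enters as its counter-solute leaves. In hepatocytes they join the urea cycle, gluconeogenesis, lipogenesis, fatty acid oxidation and oxidative phosphorylation to the cytosol. Several transport steps are served by isoforms that differ between tissues. Adenine nucleotide translocase 1 (Slc25a4) is the form of heart and muscle, translocase 2 (Slc25a5) is the form of liver and dividing cells, and aralar (Slc25a12) and citrin (Slc25a13) divide aspartate-glutamate exchange in the same way. A few members work elsewhere, such as Slc25a17 in peroxisomes and Slc25a46 in the outer membrane.

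Slc25a4 and Slc25a24, both raised in KO, Slc25a13, lowered in KO, and Slc25a5, the partner isoform of Slc25a4, are shown as examples by the 250 bases before their RefSeq start, taken from the RefSeq promoter windows of build GRCm38.p6, which held a window for 33 of the 42 members. Capitals mark matches on either strand to the TATA letters TATAA, to the CCAAT box, to the GC box with its letters GGGCGG, to the E-box with its letters CACGTG, or to a C/EBP-like motif written as TTGCNNAA. None of these motifs contains another. The windows searched run from 250 bases before to 50 bases after the start.
Slc25a4, adenine nucleotide translocase 1, the member most raised in KO, chr8:46211063-46211312, minus strand: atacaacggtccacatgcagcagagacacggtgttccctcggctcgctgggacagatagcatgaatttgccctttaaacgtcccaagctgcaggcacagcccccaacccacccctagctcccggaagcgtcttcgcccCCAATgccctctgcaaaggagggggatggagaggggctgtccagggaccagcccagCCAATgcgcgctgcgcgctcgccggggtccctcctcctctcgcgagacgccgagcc
Slc25a5, adenine nucleotide translocase 2, its liver partner, chrX:36795347-36795596, plus strand: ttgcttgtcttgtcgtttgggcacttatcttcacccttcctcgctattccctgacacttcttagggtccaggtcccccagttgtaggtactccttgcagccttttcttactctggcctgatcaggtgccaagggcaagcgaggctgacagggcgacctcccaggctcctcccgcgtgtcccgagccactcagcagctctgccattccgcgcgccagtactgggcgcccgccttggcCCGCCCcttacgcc
Slc25a24, an ATP-Mg/phosphate carrier raised in KO, chr3:109122899-109123148, plus strand: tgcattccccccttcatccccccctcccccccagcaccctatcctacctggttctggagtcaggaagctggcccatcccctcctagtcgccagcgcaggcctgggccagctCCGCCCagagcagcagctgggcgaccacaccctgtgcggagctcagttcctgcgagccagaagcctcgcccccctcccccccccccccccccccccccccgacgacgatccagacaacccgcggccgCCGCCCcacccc
Slc25a13, citrin, lowered in KO, chr6:6217174-6217423, minus strand: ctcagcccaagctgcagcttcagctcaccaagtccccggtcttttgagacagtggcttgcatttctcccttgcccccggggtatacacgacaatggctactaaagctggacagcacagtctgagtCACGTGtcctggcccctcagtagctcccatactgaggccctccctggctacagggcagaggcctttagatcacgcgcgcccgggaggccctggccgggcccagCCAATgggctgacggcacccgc

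Both translocase genes held the letters TATAA shortly after the annotated start, at position 6 in Slc25a4 and 27 in Slc25a5. Slc25a4 had CCAAT at -112 and -56, Slc25a24 had GC boxes at -139 and -12, and Slc25a13 had an E-box at -125 and CCAAT at -22. For each member only the first-listed window was counted, whereas the set of all RefSeq windows can hold several per gene. Across members the GC box was found in 87.9% of the 33 windows against 35.7% of all 32851 RefSeq windows, CCAAT in 51.5% against 37.4%, the E-box in 15.2% against 7.15%, TATAA in 9.09% against 24.9% and TTGCNNAA in 3.03% against 10.8%. The median GC content was 60.7% for members and 52.7% for all windows. Of the members lower in KO at both time points, 9 had a window and 6 of these held CCAAT, and of the 4 members higher at both time points 2 did. These matches describe the letters in the windows only.

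Levels were compared between genes in TPM, which divides by transcript length. In WT liver Slc25a5 (chrX:36059223-36062462 in GRCm39, plus strand, 4 exons) was the most abundant carrier at a mean of 360.0 ± 27.1 TPM at 12-weeks and 424 ± 95.6 TPM at 34-weeks (SD, n = 3), or 16.7% of the family over both. Slc25a47, a carrier found mainly in liver, followed at 359.0 TPM over the 6 WT mice, then the glutathione carrier Slc25a39 at 282.1, the phosphate carrier Slc25a3 at 217.9, the citrate carrier Slc25a1 at 212.9 and the dicarboxylate carrier Slc25a10 at 146.5. These 6 genes were followed by Slc25a15, Slc25a20 and Slc25a25 at 88.4, 88.3 and 77.0 TPM. At the other end, Slc25a4 (chr8:46656538-46664325, minus strand, 4 exons) had 3.36 TPM and Slc25a24 (chr3:109030317-109075773, plus strand, 10 exons) had 0.371 TPM. The spread between WT mice covered neighbouring ranks: at 34-weeks Slc25a47 had a mean of 469.9 ± 153 TPM (SD, n = 3), above that of Slc25a5.

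After TMM, more carriers were called lower than higher in KO at both time points. A gene was called when its log2 fold change passed 1 in size with an adjusted p under 0.05 in edgeR's quasi-likelihood test across all 14535 genes. At 12-weeks 5 of the 42 members were higher and 11 lower in KO than in WT, where 20.2% of all tested genes were called higher and 9.07% lower. At 34-weeks 4 members were higher and 20 lower, against 20.5% and 15.7% of all genes. The median log2 fold change of the members was -0.65 at 12-weeks and -0.87 at 34-weeks, against 0.02 and -0.03 for all genes. CPM did not overlap between KO and WT for 28 members at 12-weeks and 31 at 34-weeks, where 52.7% and 60.3% of all genes did not overlap. With total counts in place of TMM the median of all genes moved to 0.48 and 0.60, the members' medians stayed below 0 at -0.17 and -0.23, and the calls became 5 higher and 4 lower at 12-weeks and 5 higher and 9 lower at 34-weeks. The lower calls that stayed at 12-weeks were those of Slc25a13, Slc25a21, Slc25a25 and Slc25a30. At 34-weeks they were those of Slc25a10, Slc25a13, Slc25a15, Slc25a16, Slc25a20, Slc25a21, Slc25a23, Slc25a34 and Slc25a47. Both comparisons use different mice throughout, and KO mouse 5 with its own code does not carry the 12-weeks result: 13 members were called without it.

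**Figure D1:**
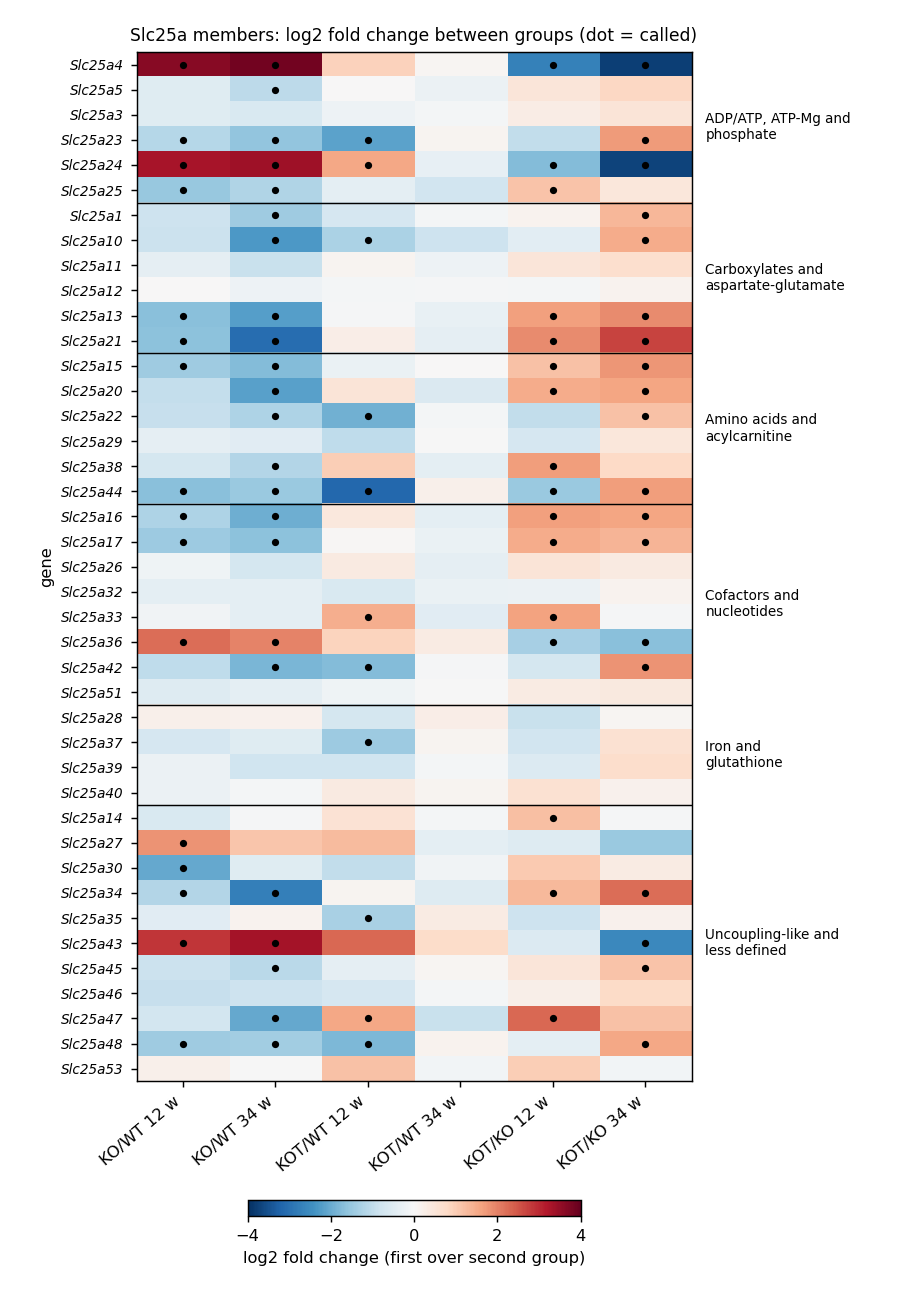
Log2 fold change (colour, from -4 in blue to 4 in red, first group over second group) of 41 of the 42 Slc25a members (rows, grouped by transported solute) in 6 comparisons within a time point (columns), with a dot where the member was called. The KO columns are mostly blue with 5 and 4 dotted red cells, and the column of KOT against WT at 34-weeks holds no dot.

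In bulk liver a lower value can come from fewer cells of a type or from less RNA per cell, and these cannot be told apart. Marker genes of other cell types moved with the KO groups. The summed level of 8 macrophage and Kupffer cell genes was 115 to 295 CPM in WT and 3490 to 7050 in KO at 12-weeks, and 200 to 423 and 2810 to 4900 at 34-weeks, with 6 of the 8 called higher at both times and 1 lower at 34-weeks. All 6 lipid-associated macrophage genes were higher at both times, and the sum of 8 stellate cell genes went from 95.6 to 190 CPM in WT to 749 to 1200 in KO at 12-weeks and from 178 to 201 to 1300 to 2500 at 34-weeks. Of these 8 stellate genes, 6 were called higher and 1 lower at 12-weeks, and 7 higher and 1 lower at 34-weeks. Mean Lrat was lower in KO, at 12.55 CPM in WT and 3.681 in KO at 12-weeks and 16.17 and 2.623 at 34-weeks. Of 6 cholangiocyte genes, 4 were called higher at 12-weeks and 6 at 34-weeks. Their summed level, 29.4 to 58.7 CPM in WT and 453 to 2230 in KO at 12-weeks, was mostly that of Spp1, which the lipid-associated macrophage list also holds and whose mean was 30.01 ± 9.93 CPM in WT and 1062 ± 994.9 in KO (SD, n = 3), while Krt19 and Krt7 differed by 0.17 and 0.80 on the log2 scale without a call at that time. All 6 proliferation genes were higher at both times. The 8 hepatocyte genes summed to 75500 to 95100 CPM in WT and 65400 to 84300 in KO at 12-weeks, with 2 lower, and to 72400 to 90700 and 45500 to 79700 at 34-weeks, with 4 lower. Of the sinusoidal endothelial list 1 gene was higher and 3 lower of 6 at both times, of the erythroid list 0 higher and 1 lower of 6 at 12-weeks and 1 and 2 at 34-weeks, of the lymphoid list 5 and 0 of 8 and then 3 and 1, and of the neutrophil list 6 and then 4 of 6 were higher. Their part in the carrier results was not tested.

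The carriers of ADP, ATP and phosphate split by isoform. Slc25a4 rose in KO to a multiple of its WT level, while its partner Slc25a5 fell at 34-weeks on the TMM scale. Slc25a4 stood at 4.61, 8.42 and 4.66 CPM in WT and at 53.3, 62.1 and 104 CPM in KO at 12-weeks, and at 7.31, 6.38 and 5.72 CPM against 95.7, 83.3 and 102 CPM at 34-weeks. Every KO mouse lay above every WT mouse at both times. The log2 fold change was 3.63 (SE 0.31, edgeR adjusted p = 2.47e-07) at 12-weeks and 3.86 (SE 0.31, adjusted p = 1.49e-07) at 34-weeks, and it kept its call in all 15 alternatives at each time point, where it ranged from 3.29 to 4.12 and from 3.78 to 4.50.

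Slc25a5 had 411, 453 and 407 CPM in WT and 243, 310 and 351 CPM in KO at 12-weeks, which do not overlap, with a log2 difference of -0.49 (SE 0.21, edgeR adjusted p = 0.0796). At 34-weeks the values were 430, 404 and 433 CPM in WT and 175, 178 and 259 CPM in KO, a log2 fold change of -1.05 (SE 0.22, adjusted p = 0.00075). This call sits at the fold limit and fell inside it without KO mouse 4 (-0.95) or mouse 5 (-0.96) and with upper-quartile factors (-0.87) or total counts (-0.43). In TPM the 12-weeks means of Slc25a5 were 360 in WT and 358 in KO. At 34-weeks its TPM was 314, 474 and 484 in WT and 334, 257 and 377 in KO, which overlap. Reads from the pseudogene Slc25a5-ps, which shares an exact run of 97 bases with Slc25a5, could be split between both rows.

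Within each mouse, the Slc25a4 share of the 2 translocases does not depend on the scaling between mice. It was 0.808 ± 0.237% of their summed TPM in WT and 12.4 ± 2.41% in KO at 12-weeks (SD, n = 3), and 0.905 ± 0.115% and 21.8 ± 2.75% at 34-weeks. The lowest KO mouse had 10.6% and the highest WT mouse 1.08%. Slc25a5 therefore remained the larger part of translocase mRNA in all 6 KO livers.

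The calcium-regulated ATP-Mg/phosphate carriers divided in the same manner. Slc25a24 was at 0.429, 1.48 and 1.10 CPM in WT and 5.36, 8.27 and 16.0 CPM in KO at 12-weeks, and at 1.83, 1.58 and 1.21 against 15.9, 11.5 and 20.4 CPM at 34-weeks. The groups did not overlap, with log2 fold changes of 3.28 (SE 0.55, edgeR adjusted p = 0.000187) and 3.38 (SE 0.54, adjusted p = 8.26e-05). The WT values rest on 8 to 40 reads per mouse, and a long noncoding gene overlaps Slc25a24 on the opposite strand.

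Slc25a23, the isoform of the same carrier with the second highest TPM in WT, was at 155, 112 and 211 CPM in WT and 101, 71.1 and 45.6 CPM in KO at 12-weeks, and at 103, 209 and 208 against 49.5, 45.5 and 77.3 CPM at 34-weeks. All KO mice were below all WT mice, with log2 fold changes of -1.14 and -1.59, and the call at 12-weeks was lost without WT mouse 3 (adjusted p = 0.0936), KO mouse 8 (0.055) or KO mouse 9 (0.09). Slc25a25, the most abundant of the group, fell by 1.53 and 1.20 on the log2 scale, where the 34-weeks value was -0.96 without WT mouse 1. Slc25a24 made up 0.223 ± 0.135% of the summed TPM of these 3 genes in WT and 5.24 ± 2.88% in KO at 12-weeks, and 0.31 ± 0.0608% and 7.75 ± 1.47% at 34-weeks (SD, n = 3). Slc25a3, the carrier of phosphate and copper, had 322, 366 and 309 CPM in WT and 201, 248 and 265 in KO at 12-weeks, and 312, 288 and 287 against 187, 175 and 225 at 34-weeks. Its log2 differences of -0.48 and -0.60 had adjusted p = 0.0448 and 0.0131 in edgeR and stayed inside the fold limit. Both depended on the processing, since among the 15 alternatives the highest values were -0.008 (12-weeks) and 0.04 (34-weeks). Mean TPM of Slc25a3 did not show the fall. The 12-weeks means were 213.8 TPM in WT and 211.5 in KO, and the 34-weeks means were 222 and 234.7.

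**Figure D2:**
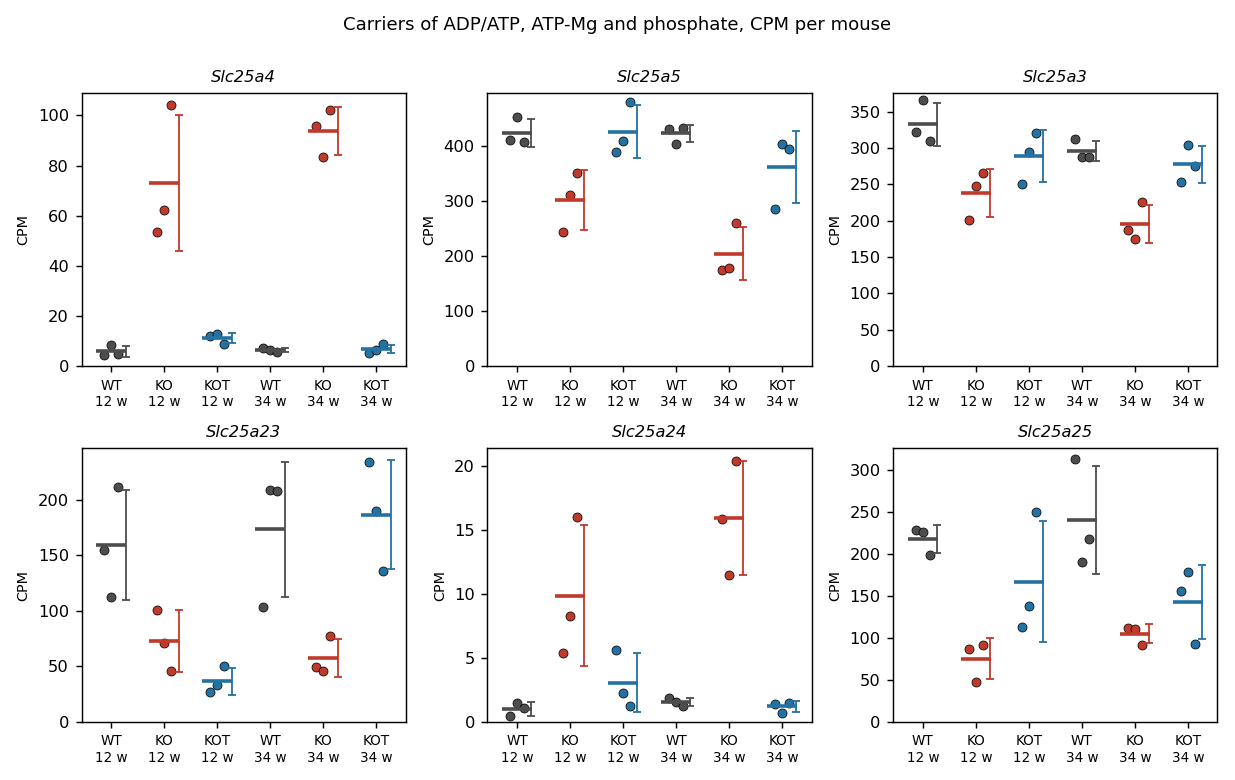
CPM (TMM-scaled, linear axes from 0) of the 6 carriers of ADP/ATP, ATP-Mg and phosphate in each mouse of the 6 groups, where points are mice, bars the group mean and whiskers the SD (n = 3). Slc25a4 and Slc25a24 have their highest means in KO. On this scale Slc25a5, Slc25a3, Slc25a23 and Slc25a25 lie lower there, and Slc25a23 is lowest in KOT at 12-weeks.

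Of the 6 carriers of carboxylates and of aspartate-glutamate, 2 were lower in KO at 12-weeks and 4 at 34-weeks, and none was higher. Citrin, Slc25a13 (chr6:6040252-6217294 in GRCm39, minus strand, 18 exons), serves the malate-aspartate shuttle and supplies aspartate to the urea cycle. It was at 198, 200 and 200 CPM in WT and 44.2, 72.0 and 72.0 CPM in KO at 12-weeks, and at 187, 178 and 213 against 39.5, 35.6 and 51.4 CPM at 34-weeks. The WT and KO values lay far apart, with log2 fold changes of -1.67 (SE 0.22, edgeR adjusted p = 1.55e-05) and -2.19 (SE 0.22, adjusted p = 8.78e-07), called in all 15 alternatives at each time. Aralar, Slc25a12, differed by 0.01 and -0.19 (adjusted p = 0.981 and 0.477), and its share of the TPM of both isoforms was 6.75 ± 1.13% in WT and 16.7 ± 5.55% in KO at 12-weeks and 7.35 ± 1.02% and 24 ± 2.07% at 34-weeks (SD, n = 3).

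Slc25a21, the carrier of 2-oxoadipate from lysine and tryptophan breakdown, was at 15.4, 17.7 and 14.7 CPM in WT and 4.58, 6.56 and 4.12 CPM in KO at 12-weeks. At 34-weeks it was at 15.6, 15.6 and 19.0 CPM in WT and 1.32, 2.09 and 2.61 CPM in KO. The log2 fold changes were -1.64 (SE 0.26) and -3.06 (SE 0.28, edgeR adjusted p = 3.63e-07), the latter being the most negative value of the family in KO.

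Slc25a10, which exchanges malate and succinate for phosphate, was at 149, 154 and 197 CPM in WT and 91.4, 98.3 and 88.0 CPM in KO at 12-weeks, a difference of -0.85 with adjusted p = 0.0518 in edgeR. At 34-weeks it was at 266, 365 and 425 CPM in WT and 63.1, 61.0 and 90.2 CPM in KO and fell by 2.30 on the log2 scale. Slc25a1, which exports citrate for lipogenesis, had 293, 333 and 316 CPM in WT and 153, 212 and 162 in KO at 12-weeks, and 293, 293 and 345 against 100, 123 and 127 at 34-weeks. Its values did not overlap at either time, and its log2 differences were -0.84 (adjusted p = 0.0296, inside the fold limit) and -1.41 (adjusted p = 0.000829). The oxoglutarate/malate carrier Slc25a11 differed by -0.37 and -0.90 and was not called.

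Among the 6 carriers of amino acids and acylcarnitine, 2 were lower at 12-weeks and 5 at 34-weeks. Slc25a15, the ornithine carrier of the urea cycle, was at 330, 328 and 330 CPM in WT and 104, 143 and 118 CPM in KO at 12-weeks, and at 284, 288 and 269 against 66.1, 75.4 and 110 CPM at 34-weeks. Neither group overlapped the other, and the log2 fold changes were -1.44 (SE 0.21, edgeR adjusted p = 4.49e-05) and -1.74 (SE 0.21, adjusted p = 5.14e-06).

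Slc25a20, the carnitine-acylcarnitine carrier that brings long-chain acyl groups to beta-oxidation, was at 123, 147 and 122 CPM in WT and 59.8, 66.4 and 77.2 CPM in KO at 12-weeks. At 34-weeks it was at 188, 148 and 155 CPM in WT and 29.2, 36.3 and 44.5 CPM in KO. The values were apart at both times, but the difference at 12-weeks, -0.95 with edgeR adjusted p = 0.0033, stayed inside the fold limit, while that at 34-weeks was -2.16.

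Slc25a44 carries branched-chain amino acids. It was at 69.0, 54.4 and 80.7 CPM in WT and 24.5, 22.1 and 18 CPM in KO at 12-weeks, and at 27.2, 72.6 and 81.1 against 21.4, 18.2 and 25.8 CPM at 34-weeks. WT mouse 1 at 34-weeks was near the KO mice. The log2 fold changes were -1.66 and -1.47. The first was lost without KO mouse 9 (edgeR adjusted p = 0.055), and the second without WT mouse 2 (0.0653), WT mouse 3 (0.0887), KO mouse 4 (0.0671) or KO mouse 5 (0.0809).

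The glutamate carrier Slc25a22 had 94.3, 75.8 and 129 CPM in WT and 66.6, 57.0 and 33.7 in KO at 12-weeks, and 80.5, 136 and 145 against 49.3, 56.4 and 46.3 at 34-weeks. Slc25a38, which carries glycine for haem synthesis, had 25.8, 32.9 and 20.2 CPM in WT and 17.6, 13.9 and 17.6 in KO at 12-weeks, and 33.7, 20.5 and 16.7 against 8.80, 10.2 and 12.4 at 34-weeks. Both were called lower at 34-weeks, by 1.25 and 1.17 on the log2 scale, the first not without WT mouse 3 (edgeR adjusted p = 0.0512) and the second not without WT mouse 1, when its value was -0.83. With total counts neither was called, at -0.65 and -0.51. The basic amino acid carrier Slc25a29 differed by -0.35 and -0.46 and was not called.

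**Figure D3:**
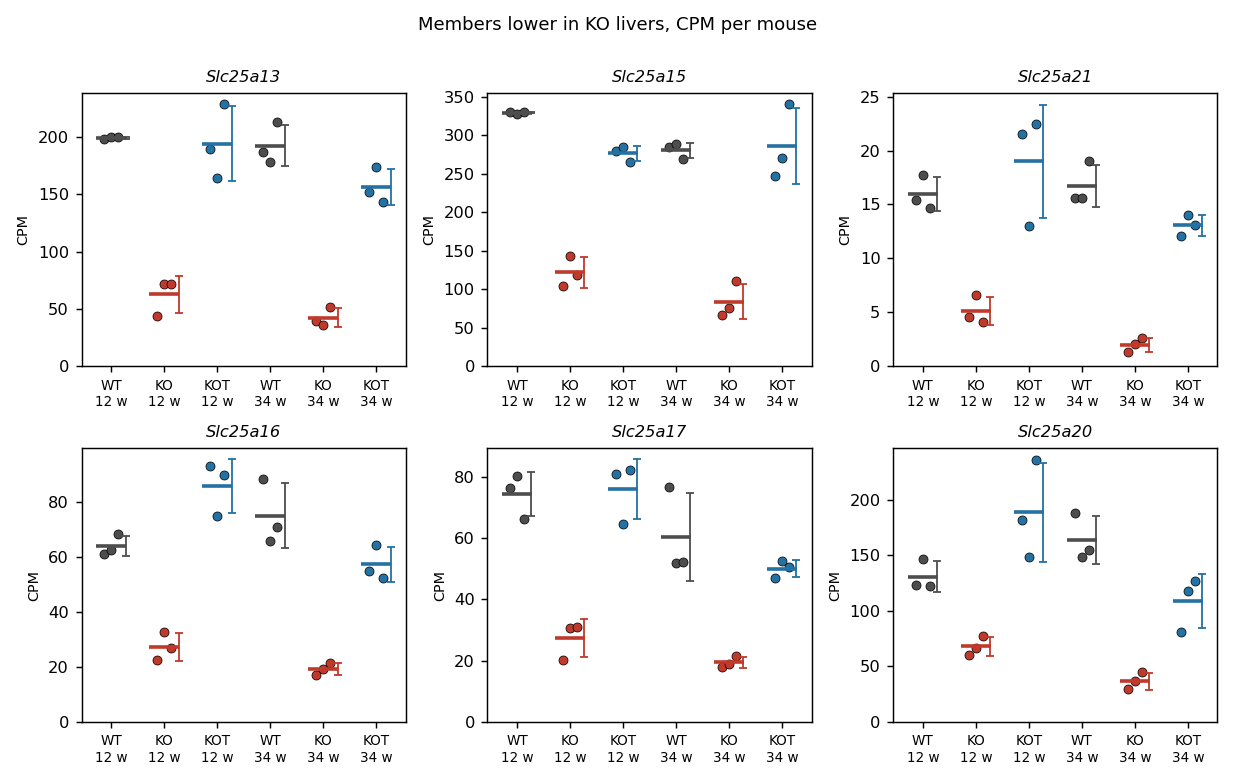
CPM (TMM-scaled, linear axes from 0) of citrin (Slc25a13), the ornithine carrier (Slc25a15), Slc25a21, Slc25a16, Slc25a17 and the acylcarnitine carrier (Slc25a20) in each mouse, where points are mice, bars the group mean and whiskers the SD (n = 3). KO mice lie below WT mice in every panel at both times, and KOT mice lie above all KO mice.

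Of the 9 carriers of cofactors and nucleotides, 1 was higher and 2 were lower at 12-weeks, and 1 was higher and 4 lower at 34-weeks. Slc25a16, linked to coenzyme A in mitochondria, was at 61.1, 62.3 and 68.1 CPM in WT and 22.4, 32.6 and 26.8 CPM in KO at 12-weeks, and at 88.2, 65.5 and 70.8 against 17.0, 19.0 and 21.5 CPM at 34-weeks. Slc25a17, the peroxisomal carrier of coenzyme A, FAD and NAD, was at 76.3, 80.4 and 66.4 CPM in WT and 20.1, 30.6 and 31.0 CPM in KO at 12-weeks, and at 76.8, 51.9 and 52.2 against 17.9, 18.9 and 21.5 CPM at 34-weeks. In both genes KO and WT did not overlap. The log2 fold changes were -1.23 and -1.96 for Slc25a16 and -1.45 and -1.63 for Slc25a17, all with edgeR adjusted p of 6.77e-05 or less, and with total counts Slc25a16 (-0.76) at 12-weeks and Slc25a17 at both times (-0.98 and -0.97) fell inside the fold limit.

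Slc25a42, which imports coenzyme A, had a log2 difference of -1.01 at 12-weeks (edgeR adjusted p = 0.102). It was called at 34-weeks at -1.83, but not with total counts (adjusted p = 0.0538). Slc25a36, a pyrimidine nucleotide carrier, went the other way, with log2 fold changes of 2.24 (SE 0.28, adjusted p = 1.04e-05) and 1.99 (SE 0.27, adjusted p = 1.92e-05). Its relative Slc25a33 differed by -0.15 and -0.39 and was not called, and Slc25a36 rose from 3.66 ± 0.654% to 17.9 ± 4.95% of the TPM of the pair at 12-weeks and from 6.58 ± 2.62% to 21.8 ± 6.12% at 34-weeks (SD, n = 3). The carriers of S-adenosylmethionine (Slc25a26), of folate and FAD (Slc25a32) and of NAD (Slc25a51) were not called, with log2 differences from -0.16 to -0.50 at 12-weeks and -0.39 to -0.70 at 34-weeks.

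None of the 4 carriers of iron and glutathione was called in KO at either time. Slc25a39, which brings glutathione into mitochondria, had 369, 424 and 384 CPM in WT and 366, 344 and 296 in KO at 12-weeks, and 366, 413 and 443 against 181, 244 and 282 at 34-weeks. On this TMM scale the KO values were below all WT values at both times, with differences of -0.23 and -0.79 (edgeR adjusted p = 0.639 and 0.0707). In TPM the order at 12-weeks was reversed, with 235, 239 and 280 in WT and 394, 311 and 281 in KO. At 34-weeks the groups overlapped in TPM. Mitoferrin 1 (Slc25a37) had 34.7, 23.0 and 31.2 CPM in WT and 25.6, 18.2 and 11.9 in KO at 12-weeks, and 17.0, 33.2 and 34.8 against 21.9, 18.7 and 19.7 at 34-weeks, and the groups overlapped at both times.

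The remaining 11 members are uncoupling-like or have less settled substrates, and 2 were higher and 3 lower at 12-weeks and 1 higher and 4 lower at 34-weeks. Slc25a47 (chr12:108801972-108822741 in GRCm39, plus strand) had 262, 547 and 386 CPM in WT and 105, 322 and 286 in KO at 12-weeks, which overlap. At 34-weeks it was at 1130, 355 and 589 CPM in WT and 145, 268 and 90.3 CPM in KO, a log2 fold change of -2.04 (SE 0.52, edgeR adjusted p = 0.004). Its gene overlaps Slc25a29 on the opposite strand, and reads of that stretch cannot be told apart where strand was not used. Slc25a48 had 10.2, 8.66 and 14.1 CPM in WT and 4.72, 4.97 and 2.67 in KO at 12-weeks, and 8.55, 13 and 12.1 against 4.07, 3.75 and 4.96 at 34-weeks. It fell by 1.41 and 1.4 on the log2 scale without overlap in CPM. Both calls were lost with total counts, at -0.96 and -0.80.

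Slc25a34, a carrier without a settled substrate, fell by 1.16 and 2.73 on the log2 scale, and the first call was lost when any of WT mice 1 and 3 or the 3 KO mice was left out (edgeR adjusted p from 0.0502 to 0.141). Slc25a45 was called at 34-weeks only, at -1.07 (-0.997 without KO mouse 5 and -0.44 with total counts). Slc25a30, an uncoupling-like carrier, was called at 12-weeks only, at -2.04 (SE 0.48, adjusted p = 0.00309). Slc25a27, also uncoupling-like, was called higher at 12-weeks only, at 1.78, and not without WT mouse 1 (0.0771), WT mouse 2 (0.148), KO mouse 8 (0.0571) or KO mouse 5 (0.19). The calls of Slc25a43 rest on few reads. It had 4, 0 and 0 reads in WT and 14, 10 and 18 in KO at 12-weeks, and 0, 2 and 2 against 29, 11 and 14 at 34-weeks, so no fold is given. Its call was lost at 12-weeks without any of 5 mice (0.051 to 0.133), and at 34-weeks without WT mouse 1 (0.0504) or KO mouse 4 (0.0563).

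The 2 time points gave 10 members called lower at both, 10 called lower at 34-weeks only, 1 lower at 12-weeks only and none with opposite calls. The difference between the time points was itself tested, and edgeR called no member, where it called 0.0619% of all genes. In edgeR 7 members had an unadjusted p under 0.05, as did 1379 of all 14535 genes. DESeq2 called Slc25a20 (-1.18, adjusted p = 0.0338) and Slc25a21 (-1.38, adjusted p = 0.0333), among 191 of all 14535 genes. WT livers at 34-weeks and 12-weeks also gave no called member in edgeR or DESeq2, against 0.323% of all genes in edgeR and 188 of 14535 in DESeq2. In edgeR 2 members and 1135 of all genes had an unadjusted p under 0.05. The members' log2 differences ran from -1.21 to 1.33.

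In rAAV8-treated livers at 34-weeks no carrier differed from WT by the same rule. The test called 0 of 42 members, where 0.131% of all genes were higher and 0.0894% lower. In edgeR 4 members and 839 of all 14535 genes had an unadjusted p under 0.05. DESeq2 called 0 members and 84 of all genes. The members' log2 differences ran from -0.88 to 0.73 with a median of -0.09. CPM of KOT and WT did not overlap for 10 members, or for 8.88% of all genes. Slc25a4 was at 5.20, 6.61 and 8.75 CPM in KOT, overlapping the WT values, and Slc25a24 at 1.42, 0.71 and 1.48 CPM. Slc25a13 was at 152, 174 and 143 CPM, below the 3 WT mice, Slc25a15 at 247, 270 and 341 CPM, and Slc25a20 at 81.2, 118 and 127 CPM, also below WT. The last difference was -0.59 (SE 0.23, edgeR adjusted p = 0.674), which does not show equality.

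Against KO at 34-weeks, 15 members were higher and 4 lower in KOT, where 12.9% and 18.6% of all genes were called. All 19 had been called the opposite way in KO against WT, a comparison that shares the KO mice. How many of all genes had such opposite calls was not counted. The largest values were -3.77 (SE 0.31) for Slc25a4, -3.70 (SE 0.55) for Slc25a24, 2.71 (SE 0.28) for Slc25a21 and 2.22 for Slc25a34, leaving out Slc25a43, which rests on few reads. Slc25a13, Slc25a15, Slc25a23 and Slc25a42 were higher by 1.89, 1.77, 1.70 and 1.78, and Slc25a44, Slc25a16, Slc25a20, Slc25a48 and Slc25a10 by 1.66, 1.58, 1.57, 1.53 and 1.49. Slc25a17, Slc25a1, Slc25a22 and Slc25a45 were higher by 1.36, 1.34, 1.18 and 1.16. Slc25a36 was lower by 1.67 on this scale (a log2 fold change of -1.67), and Slc25a43 was also lower, with 2, 0 and 5 reads in KOT. Slc25a5 differed by 0.82 and Slc25a47 by 1.16 without a call (edgeR adjusted p = 0.00543 and 0.0786). With total counts 7 members were higher and 5 lower, and the calls of Slc25a22, Slc25a43 and Slc25a44 were lost without single mice: Slc25a22 without KO mouse 4 (0.0674), KO mouse 6 (0.0676) or KOT mouse 9 (0.05), Slc25a43 without any of 5 mice (0.0508 to 0.136), and Slc25a44 without KO mouse 5 (0.0564).

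At 12-weeks carriers were called in treated livers against WT as well as against KO. Against WT, 3 members were higher and 8 lower in KOT, where 13.6% and 12% of all genes were called, and the members' median was -0.06. With total counts, which moved the median of all genes from 0.06 to -0.33, the split was 1 higher and 14 lower. The count fell to 6 without KOT mouse 10 and to 5 without WT mouse 3. Of the 8 lower members, 3 (Slc25a23, Slc25a44 and Slc25a48) were also called lower in KO and 5 (Slc25a10, Slc25a22, Slc25a35, Slc25a37 and Slc25a42) were not. TMM factors of the 3 KOT livers were 0.587 to 0.759, and macrophage genes summed to 893 to 2650 CPM in them, with 4 of 8 called higher than in WT. Of the other lists, 5 of 6 lipid-associated macrophage genes, 4 of 8 stellate cell, 4 of 8 lymphoid, 1 of 6 neutrophil, 2 of 6 proliferation and 1 of 6 endothelial genes were called higher. 1 endothelial gene was called lower, as was 1 of 8 hepatocyte genes, the transcription factor Hnf4a (-1.81, edgeR adjusted p = 0.00229), and no cholangiocyte or erythroid gene was called. Their part in the result was not tested.

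Slc25a44 was lower in treated livers than in either other group at 12-weeks. KOT mice had 1.17, 9.89 and 11.7 CPM, below the lowest KO mouse at 18 CPM and the lowest WT mouse at 54.4 CPM. The log2 fold change was -3.15 (SE 0.54, edgeR adjusted p = 0.00229) against WT and -1.49 (SE 0.52, adjusted p = 0.0223) against KO, the latter lost without KO mouse 5 (0.0575). At 34-weeks KOT mice had 86.0, 69.5 and 51.5 CPM.

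The glutamate carrier Slc25a22 was at 8.94, 30.9 and 38.9 CPM in KOT at 12-weeks and at 120, 108 and 117 CPM at 34-weeks, with log2 differences to WT of -1.92 (edgeR adjusted p = 0.0045) and -0.07. Slc25a23 was at 26.5, 32.7 and 49.8 CPM and then 234, 190 and 136 CPM, with differences of -2.13 and 0.11. Slc25a48 was at 3.40, 3.15 and 2.99 CPM and then 15.4, 15.5 and 6.11 CPM, with differences of -1.79 and 0.14. In all 3 genes the treated mice at 12-weeks lay below every WT mouse. Mitoferrin 1 (Slc25a37) had 8.36, 11.2 and 13.1 CPM and then 41.5, 30.1 and 20.4 CPM, with differences of -1.44 and 0.11.

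Other members were higher in treated livers at 12-weeks. Slc25a47 reached 1440, 809 and 1250 CPM, above the highest WT mouse at 547 CPM, and stood at 256, 572 and 299 CPM at 34-weeks, where it overlapped WT. Slc25a33, a pyrimidine nucleotide carrier, had 66.6, 50.7 and 51.9 CPM and then 11.1, 19.3 and 11.9 CPM. The log2 fold changes against WT at 12-weeks were 1.55 and 1.45. Slc25a38 had 61.5, 46.5 and 50 CPM and then 16.5, 16.6 and 20.9 CPM, and its 12-weeks difference of 1.00 (edgeR adjusted p = 0.00911) lay just inside the fold limit. WT mouse 1 at 34-weeks was also high in Slc25a47, Slc25a33 and Slc25a38, at 1130, 34.6 and 33.7 CPM, and low in Slc25a44 and Slc25a23, at 27.2 and 103 CPM.

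Slc25a24 remained higher than WT in treated livers at 12-weeks, with 5.64, 2.28 and 1.23 CPM and a log2 fold change of 1.56 (SE 0.56, edgeR adjusted p = 0.0375). Mouse 12 overlapped the WT range, and the call was lost without KOT mouse 10 (0.324), WT mouse 1 (0.131) or WT mouse 3 (0.0912), and with total counts (0.104). Slc25a4 was at 12.1, 12.7 and 8.90 CPM, above all WT mice on this scale, with a difference of 0.93 (adjusted p = 0.0219) inside the fold limit. In TPM Slc25a4 was at 3.23, 4.89 and 2.76 in KOT and 2.29, 3.76 and 2.68 in WT, which overlap. The Slc25a4 share of translocase TPM was 1.57 ± 0.416% in these mice and 1.13 ± 0.169% in treated mice at 34-weeks (SD, n = 3).

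Slc25a10 had 31.1, 72.3 and 106 CPM in treated livers at 12-weeks and 191, 250 and 160 CPM at 34-weeks, with differences to WT of -1.25 and -0.82. Its first call was lost without KOT mouse 10, at -0.97, or WT mouse 3, at adjusted p = 0.0534 in edgeR. Slc25a42 and Slc25a35 were called at -1.72 and -1.29, the former lost without WT mouse 3 (0.0701) and the latter without any of 5 mice (0.0619 to 0.127). The calls of Slc25a33 were lost without KOT mouse 10 (0.0672) or WT mouse 3 (0.0698), and those of Slc25a47 without WT mouse 1 (0.101), WT mouse 3 (0.0889), KOT mouse 10 (0.11) or KOT mouse 12 (0.0619). Total counts also ended the call of Slc25a47 (0.0586). Of the abundant carriers, Slc25a5 had 388, 409 and 480 CPM in KOT and 286, 403 and 394 at 34-weeks, Slc25a3 251, 295 and 321 and then 253, 304 and 275. Slc25a1 had 90.9, 221 and 274 CPM and then 259, 323 and 301, and Slc25a39 had 80.3, 280 and 324 and then 342, 432 and 376. KOT mouse 10 at 12-weeks held the lowest value of the 18 mice for 11 members: Slc25a1, Slc25a10, Slc25a22, Slc25a23, Slc25a29, Slc25a35, Slc25a37, Slc25a39, Slc25a42, Slc25a44 and Slc25a46.

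**Figure D4:**
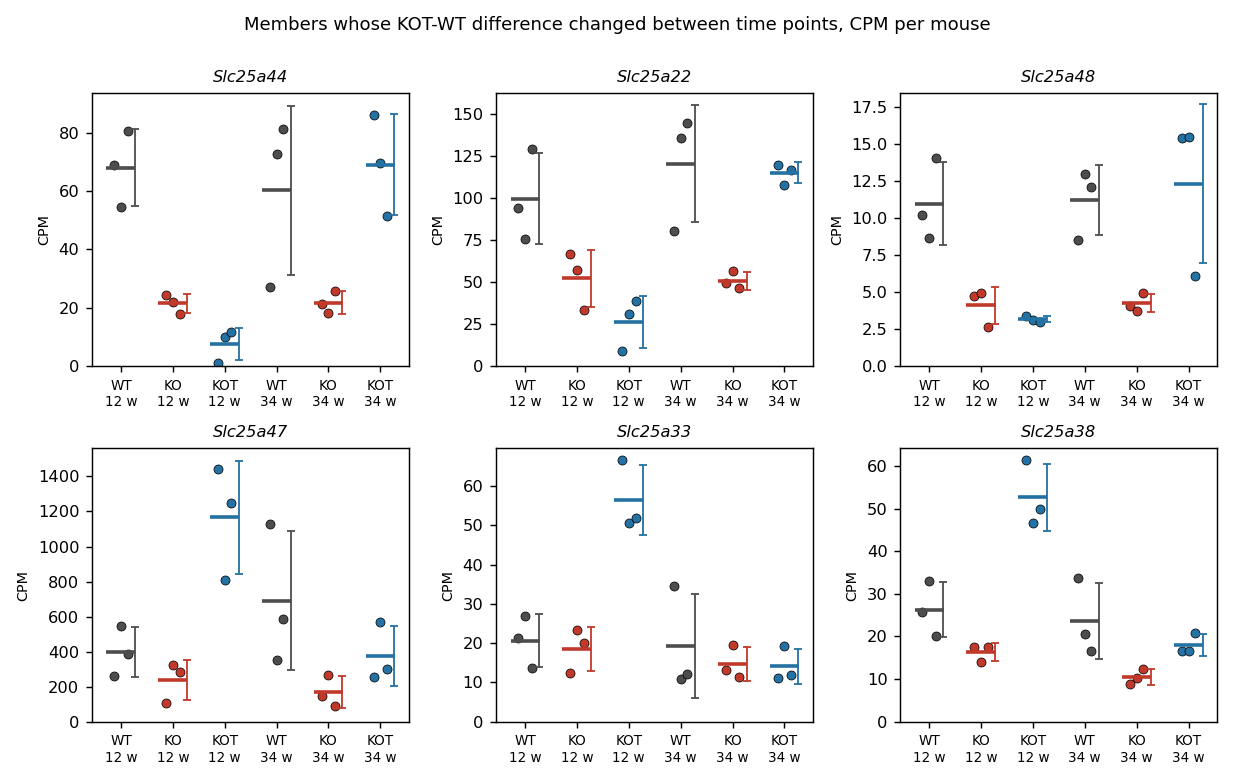
CPM (TMM-scaled, linear axes from 0) of 6 of the 9 members whose KOT-WT difference was called different between time points, in each mouse, where points are mice, bars the group mean and whiskers the SD (n = 3). KOT mice at 12-weeks are lowest in the mean of Slc25a44, Slc25a22 and Slc25a48 and highest for Slc25a47, Slc25a33 and Slc25a38, and at 34-weeks KOT and WT overlap in all 6 panels.

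The change of the KOT-WT difference between time points was tested as an interaction and called 9 members, 5 higher and 4 lower at 34-weeks, where it called 18.4% of all genes. The largest were 3.34 for Slc25a44 (SE 0.72, edgeR adjusted p = 0.0236), -2.43 for Slc25a47 (SE 0.72, adjusted p = 0.0327) and 2.24 for Slc25a23 (SE 0.51, adjusted p = 0.0241). These calls were not stable: none was made in the fit of the 4 groups alone, nor without WT mouse 1, WT mouse 3 (both 12-weeks) or KOT mouse 9 (34-weeks), and 1 and 3 were made without WT mouse 1 at 34-weeks and KOT mouse 10.

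Against KO at 12-weeks, 12 members were higher and 4 lower in KOT, where 16.2% and 25.3% of all genes were called. This split depends on the scaling. With total counts, which moved the median of all genes from -0.19 to -1.05, it was 1 higher and 15 lower, and the members' median went from 0.29 to -0.59. The 4 lower members were Slc25a4 (-2.70), Slc25a24 (-1.72), Slc25a44 (-1.49) and Slc25a36 (-1.34). The 12 higher members were Slc25a47 (2.29), Slc25a21 (1.9), Slc25a38 (1.69), Slc25a16 (1.65), Slc25a13 (1.63), Slc25a33 (1.60), Slc25a17 (1.48), Slc25a20 (1.48), Slc25a34 (1.282), Slc25a14 (1.21), Slc25a15 (1.19) and Slc25a25 (1.15), and all 12 kept their sign in every alternative. Single mice ended 4 of these 16 calls besides that of Slc25a44: Slc25a24 without KO mouse 9 (edgeR adjusted p = 0.064), Slc25a14 without KOT mouse 10 (0.0945), Slc25a25 without KOT mouse 12 (0.07) or KO mouse 8 (0.90 in log2 fold change), and Slc25a34 without KOT mouse 12 (0.129) or KO mouse 9 (0.0609).

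For 6 of the members lower in KO at both times or, for Slc25a20, at 34-weeks, the treated livers at 12-weeks had these values after TMM. Slc25a13 had 190, 164 and 229 CPM, Slc25a15 280, 284 and 265, and Slc25a21 21.5, 13 and 22.5. Slc25a16 had 92.8, 74.6 and 89.7 CPM, Slc25a17 81.1, 64.7 and 82.4, and Slc25a20 182, 148 and 236. None of these 6 was called against WT, and Slc25a16 and Slc25a20 exceeded all 3 WT mice on this scale. The place of the treated livers between KO and WT depends on the scale. In TPM the mean of Slc25a15 was 88.0 ± 11.9 in WT, 44.6 ± 7.46 in KO and 46.8 ± 9.5 in KOT, that of Slc25a13 was 64.9 ± 7.82, 29.9 ± 7.69 and 41.1 ± 6.51, and that of Slc25a17 was 43.5 ± 1.70, 21.9 ± 5.89 and 28.2 ± 2.27 (SD, n = 3). With total counts the difference of Slc25a15 between KOT and KO was 0.32 (edgeR adjusted p = 0.185). Those of Slc25a13, Slc25a16, Slc25a17, Slc25a20 and Slc25a21 also fell inside the fold limit. At 34-weeks Slc25a21 had 12.1, 14.0 and 13.1 CPM in KOT, Slc25a16 54.9, 64.4 and 52.4, and Slc25a17 47.1, 52.6 and 50.4.

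The family sum was compared on 3 scales. After TMM the 42 members summed to 3829 ± 207 CPM in WT, 2287 ± 210 in KO and 3858 ± 559 in KOT at 12-weeks, and to 4297 ± 345, 1799 ± 157 and 3485 ± 403 at 34-weeks (SD, n = 3). Without TMM, the members took 0.316 to 0.359% of reads in WT, 0.251 to 0.29% in KO and 0.216 to 0.281% in KOT at 12-weeks, so that KO and KOT overlapped below WT. The summed TPM, which leaves out TMM and also divides by transcript length, was 2017 ± 224, 1812 ± 221 and 1381 ± 235 at 12-weeks and 2666 ± 460, 1815 ± 128 and 2317 ± 108 at 34-weeks. The mean KO sum was below WT in CPM and TPM, but at 12-weeks the TPM of KO and WT mice overlapped. At 12-weeks the mean KOT sum was above KO in CPM and below it in TPM. At 34-weeks the mean KOT sum was above KO on both scales.

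**Figure D5:**
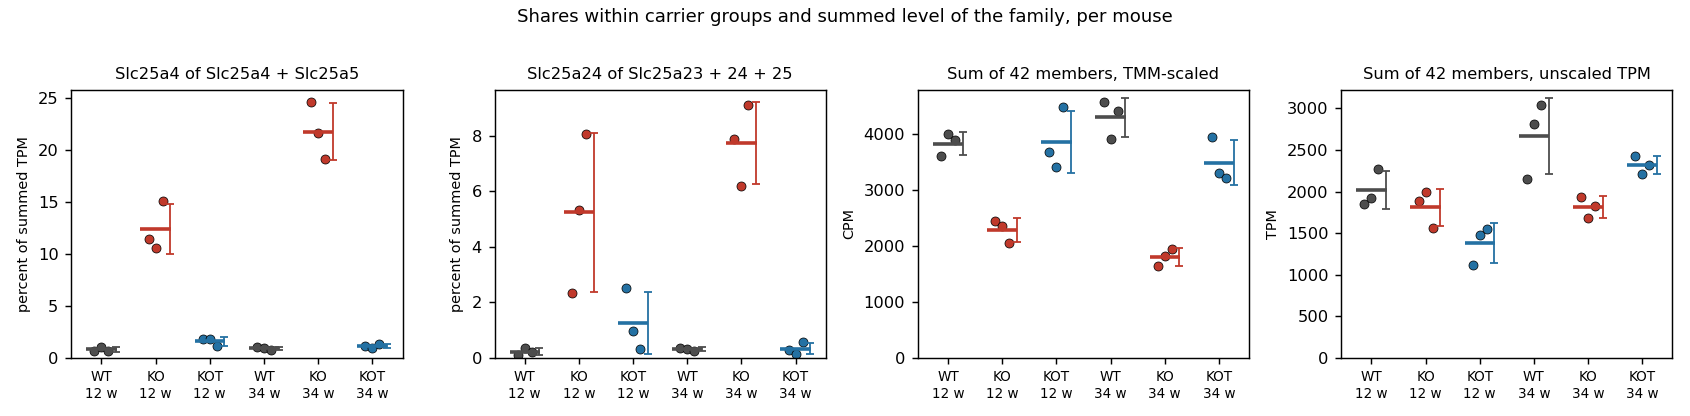
Slc25a4 as a percent of the TPM of both translocases, Slc25a24 as a percent of the TPM of the 3 ATP-Mg carriers, and the summed level of all 42 members in TMM-scaled CPM and in TPM, in each mouse (linear axes from 0), where points are mice, bars the group mean and whiskers the SD (n = 3). The Slc25a4 share is between 10.6 and 24.6% in KO and at most 1.82% in the other groups, and the family sums of KO and KOT at 12-weeks change order between the CPM and TPM panels.

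Mitochondrial transporters outside the family moved in both directions as well. Of 38 tested genes of this list, 5 were higher and 8 lower in KO than in WT at 12-weeks, and 5 higher and 15 lower at 34-weeks. The highest at 34-weeks were Mcub (5.23), an inhibitory partner of the calcium uniporter, Sfxn3 (3.92), a sideroflexin, and Cpt1c (3.03), a relative of the carnitine palmitoyltransferases, and the lowest were Cpt2 (-2.38), which acts with Slc25a20 in fatty acid import, and the haem-linked transporters Abcb6 (-2.08) and Abcb10 (-2.05). All 6 had the same call at 12-weeks and the reverse call in KOT against KO at both times, and none was called in KOT against WT at either time. The 6 were picked by their 34-weeks calls in KO against WT. KOT against KO shares the KO mice, so the reverse calls are no independent result. Of 17 genes for carrier import and inner membrane upkeep, 0 were higher and 3 lower at 12-weeks and 0 and 7 at 34-weeks. Of 14 genes that mark mitochondrial content, such as subunits of the respiratory chain, 0 were higher and 3 lower at 12-weeks and 0 and 11 at 34-weeks, with medians of -0.82 and -1.33, while in KOT against WT 2 were higher at 12-weeks and none was called at 34-weeks. Their part in the lower carrier values was not tested.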

How the data were processed

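Poly(A) RNA of 18 livers was sequenced, 3 mice in each of 6 groups. Per the study's methods, the authors assigned paired reads to mouse transcripts of build GRCm39 with Salmon, the library type being detected automatically, and summed them to genes with tximport. The deposited tables hold estimated counts, TPM and mean transcript lengths per gene and mouse; a further table holds the authors' own fold changes and p-values from DESeq2 1.40.1 in R 4.3.0 (versions from the submitters' processing notes) and was not used. Estimated counts were rounded, and a gene was kept if its reads over the 18 mice came to more than 100. All groups were fitted together with edgeR 4.0.16 in R 4.3.3 (TMM scaling, quasi-likelihood test, Benjamini-Hochberg adjustment over 14535 genes). The labels name ERCC spike-ins, which were not used here, so TMM and total counts were not set against a spiked standard. Calls required a change beyond 1 in either direction on the log2 scale together with adjusted p below 0.05. DESeq2 1.42.0, other scalings, filters, thresholds, transcript length offsets and leaving out each mouse were alternatives. The method was tested on simulated data. The number of mice per group, 3, limits the precision; 3 reads correspond to 0.0946 to 0.291 CPM, for counting error only. The labels name separate animals.

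The members, roles, gene lists and marker lists of 10 cell types were chosen with earlier results of these data known. Values of every mouse were given for the 8 members with the largest change in KO at both times (mean of at least 5 CPM), the 6 most abundant in WT, any called in KOT against WT at 34-weeks and any called in an interaction; other called members were named with their log2 fold change. Older symbols were used for 3 listed genes, and 3 others had no row. Positions come from the GENCODE vM39 annotation of GRCm39 and promoter windows from RefSeq (GRCm38.p6). No column of another sample was present (0 columns not used). The values of 1 member are not reported here, though the counts include it.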

Additional observations from a re-analysis of the deposited data

Results flagged for a closer look

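The difference between treated and WT livers changed between the time points for 9 members, by the interaction test in edgeR. The same test called 2675 of all 14535 genes, or 18.4%, so such a change was not particular to carriers. Whether carriers were called more often than other genes was not tested. On the log2 scale, 34-weeks minus 12-weeks, the change was 3.34 for Slc25a44, 2.24 for Slc25a23, 1.92 for Slc25a48, 1.85 for Slc25a22 and 1.55 for Slc25a37. It was -2.43 for Slc25a47, -1.90 for Slc25a33, -1.39 for Slc25a38 and -1.12 for Slc25a20. The edgeR adjusted p of these 9 members lay between 0.0236 and 0.0332. The number of members called was 0 without WT mouse 1 or WT mouse 3 of the 12-weeks group or KOT mouse 9 of the 34-weeks group. It was 1 without WT mouse 1 at 34-weeks and 3 without KOT mouse 10 at 12-weeks. With total counts 7 members were higher and 1 lower. Sample code and time point cannot be told apart here.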

How the results depend on the processing

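The largest dependence was on the scaling. With total counts in place of TMM the number of called members was 9 in place of 16 for KO against WT at 12-weeks, 14 in place of 24 at 34-weeks and 12 in place of 19 for KOT against KO at 34-weeks; for KOT against KO at 12-weeks the number stayed at 16 but the split changed as given above. The 9 interaction calls of treated livers dropped to 0 in the fit of only the groups compared, at an adjusted p under 0.01 and with the replicate block, and ranged from 0 to 13 when single mice were left out. The replicate block, which gave no member called in any of the 3 comparisons across time points, treats equal mouse numbers as pairs. The numbers belong to different animals (same-numbered WT mice had correlations of deviations of 0.0761, -0.24 and 0.46), so it is no paired design. DESeq2 called 2 members and 191 of all 14535 genes for the KO difference between time points, and an adjusted p under 0.01 left 5 of 11 for KOT against WT at 12-weeks. Leaving out single mice gave 5 to 14 called members in KOT against WT at 12-weeks, 12 to 14 and 20 to 24 in KO against WT at 12-weeks and 34-weeks, and 15 to 19 and 17 to 19 in KOT against KO. No called member changed sign in any alternative tried. Carriers with few reads, Slc25a43, Slc25a27 and Slc25a35, are limited by depth.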
